A study of Mus musculus with 12 samples.

Results

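Muscle takes up glucose through transporters in its surface membrane, traps it by phosphorylating it with hexokinase, and either breaks it down to pyruvate and lactate or stores it as glycogen. The adult heart draws most of its energy from fatty acids, carries mainly the insulin-responsive transporter GLUT4 and keeps GLUT1, muscle phosphofructokinase and muscle glycogen phosphorylase alongside it. Phosphofructokinase is the main control point of glycolysis, and the bifunctional Pfkfb enzymes set its activity by making and removing a sugar phosphate that activates it. The genes described here are 35 genes of glucose uptake, glycolysis, glycogen turnover and the glycerol phosphate shuttle, taken as every probe set whose platform gene symbol is one of the 35. They had 73 of the 45101 probe sets on the array. A probe set under the symbols Gpi1, Eno1 and Pfkfb1 was not analysed here, which left 32 genes, and 12 of these were read by 1 probe set and 20 by several, up to 5. Gapdh was read by 3 control probe sets alone. Of the other 31 genes, 29 lay above the filter on low values and were tested among 11165 genes. Aldoc and Phkg1 fell below it.

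The study asked which heart genes respond to ATF6, a transcription factor that is released from the endoplasmic reticulum (ER) membrane during ER stress. Its transgenic (TG) mice carry ATF6-MER, ATF6 joined to a mutant mouse estrogen receptor domain, so that tamoxifen can switch the fusion on, and non-transgenic (NTG) littermates lack it. Left ventricles of 12 male C57BL/6 mice of about 30 weeks were measured on whole-genome Affymetrix mouse arrays, with 1 heart per array and 3 arrays in each of 4 groups, which combine TG or NTG with tamoxifen or vehicle. The dose of tamoxifen, the length of treatment and the promoter driving the transgene are not stated in the labels used here. Tamoxifen itself acts on estrogen receptors, so the NTG tamoxifen group is the control for the drug, and TG vehicle is the control for the transgene. A left ventricle holds cardiomyocytes, vessel, connective tissue and immune cells, and the array reads their RNA together.

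Values are log2(intensity + 16) after quantile normalization, so 1 unit is a doubling of the offset intensity. They are set side by side for the same gene only, since probe sets differ in brightness. A change is a difference of group means ± its standard error (n = 3 arrays per group) from 1 limma fit over all 12 arrays, with Benjamini-Hochberg adjustment of p over all tested genes, and a gene is said to have risen or fallen where the adjusted p was below 0.05. A number in parentheses after a change is its adjusted p. The comparisons share groups and so are not independent of each other. Median intensity ran from 648 to 834 across arrays.

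Several arrays call for care. The array labelled NTG tamoxifen 1 read 17.72 for Esr1, whose domain is part of the fusion, where NTG tamoxifen 2 and 3 read 10.88 and 9.89 and TG tamoxifen arrays 16.66 to 17.15, so it goes against its NTG label. For 20 of the 29 tested glucose genes it lay closer to the TG tamoxifen mean than both other NTG tamoxifen arrays, and for 22 it lay outside the range of the other 5 NTG arrays. These 2 counts were not made over all tested genes, so they cannot tell the glucose genes from the rest of the array. TG vehicle 3 is a vehicle array by its title and a tamoxifen array by its treatment label. It read 15.94 for Hspa5, a gene used to check the labels. TG vehicle 1 and 2 read 16.39 and 15.76 and TG tamoxifen arrays 18.37 to 18.47, so for this gene it goes with its title. For Hspa5 the array labelled NTG tamoxifen 1 read 18.05, near the TG tamoxifen arrays, where NTG tamoxifen 2 and 3 read 15.65 and 15.49. TG tamoxifen 1 came from a mouse of 40 weeks by its label. Groups follow the titles. Beta-actin control probe sets at the 3' and 5' ends gave a ratio, which rises as RNA degrades, of 1.81 ± 0.067 with tamoxifen and 1.5 ± 0.177 with vehicle in TG hearts (SD, n = 3), and of 1.89 ± 0.0987 and 2.28 ± 0.158 in NTG hearts. In an exact two-sided permutation test p was 0.1, the smallest that 3 against 3 arrays allow, for tamoxifen against vehicle in either genotype and for the genotypes on vehicle, and 0.3 for the genotypes on tamoxifen.

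In TG hearts tamoxifen went with a change in 17 of the 29 tested genes, 58.6% of them, of which 6 rose and 11 fell. Over all tested genes 24.8% changed in this comparison, 10.4% upward and 14.4% downward. The balance of directions depended on the scaling: with each array centred on its median in place of quantile normalization 7 members rose and 9 fell, and 56.9% of all changed genes were higher, against 42% here. The transporter gene Slc2a4 (GLUT4), the phosphofructokinase genes Pfkm and Pfkl, Tpi1, Pgam2, Ldhb, the glycogen breakdown genes Pygm, Pygb and Phkb, Pfkfb2 and Gpd1 fell. Slc2a1 (GLUT1), Hk2, Pfkp, Pfkfb3, Pgk1 and Gbe1 rose. The log2 changes ran from -2.08 for Pfkm to 1.42 for Pfkp with a median of -0.20, against -0.07 over all tested genes. In 22 members the TG tamoxifen arrays did not overlap the TG vehicle arrays, 9 above and 13 below, where 44.2% of all tested genes had such a gap.

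**Figure D1:**
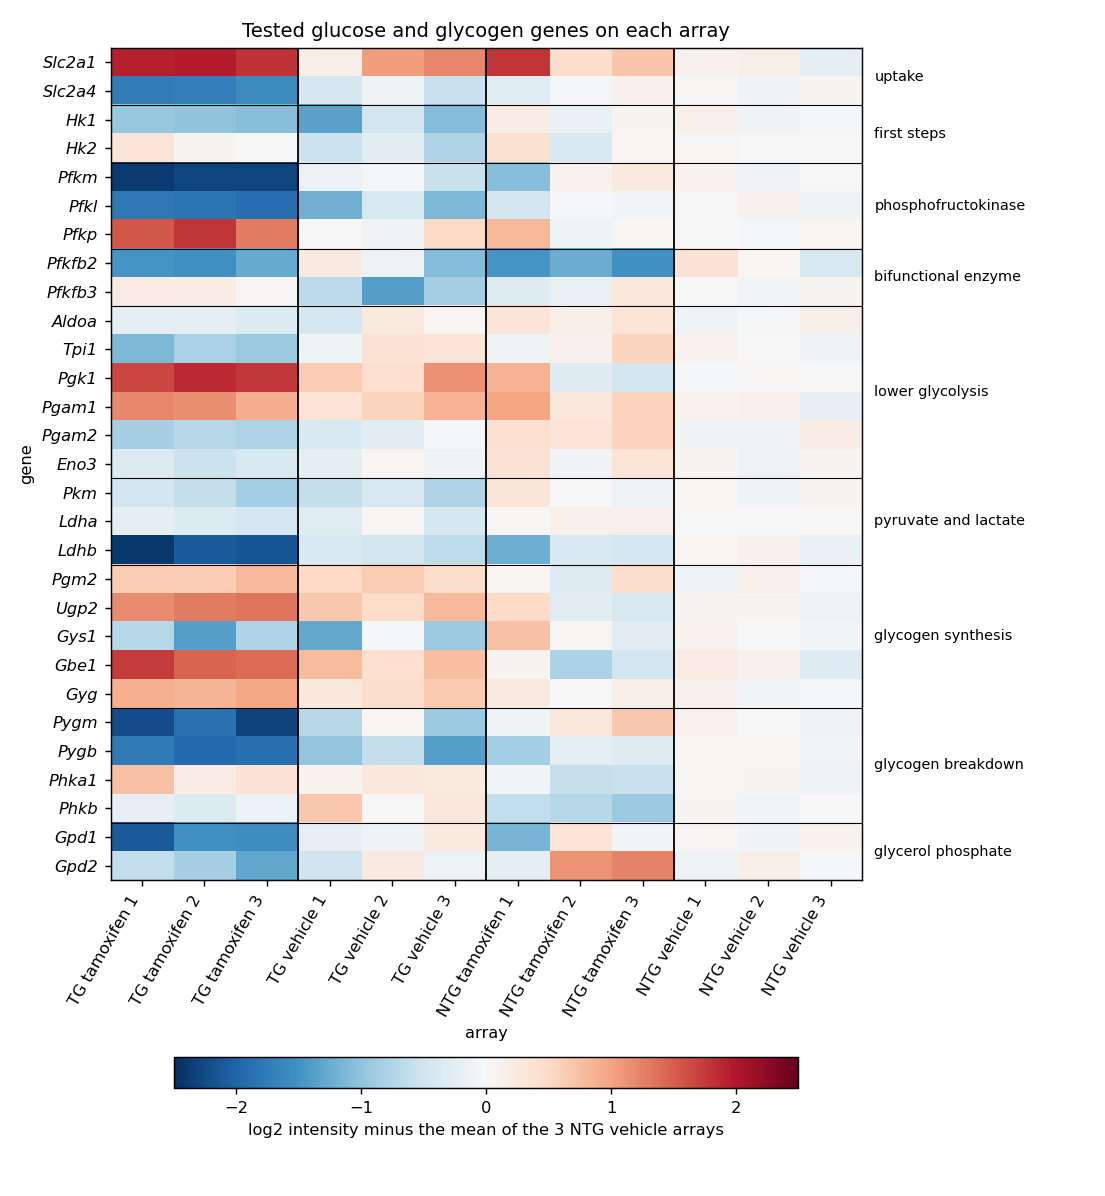
Each row is 1 of the 29 tested genes, grouped by role, and each column 1 array; the colour is the log2 intensity minus the mean of the 3 NTG vehicle arrays (red above, blue below). The 3 TG tamoxifen columns look alike, with Pfkm, Ldhb, Pygm, Pygb, Pfkl, Gpd1 and Slc2a4 darkest blue and Slc2a1, Pgk1, Pfkp and Gbe1 darkest red, and the NTG tamoxifen 1 column shares their colour for genes such as Slc2a1, Pfkm, Ldhb and Gpd1.

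Promoters of 33 of the 35 genes, as 52 windows from 250 bases before to 50 bases after an annotated start, were read from RefSeq (build GRCm38.p6) and searched on both strands. The hypoxia response core ACGTG, which the E-box CACGTG also contains, was in 23 windows (44.2%) and in 19.6% of all 32851 windows, and the E-box in 5 (9.62%) and in 7.15%. Of the 6 genes that rose in TG hearts on tamoxifen 4 had the core in a window, and of the 9 genes with a window that fell 4 had it, as did 19 of the 33 glucose genes and 21.8% of all 27025 genes in the table. The windows below show where these letters lie in 3 genes that rose and 2 that fell, which were picked after their values were known; capitals mark the core or the E-box, and each reads 5′ to 3′ along the gene's strand.
Slc2a1, chr4:119108495-119108794, plus strand: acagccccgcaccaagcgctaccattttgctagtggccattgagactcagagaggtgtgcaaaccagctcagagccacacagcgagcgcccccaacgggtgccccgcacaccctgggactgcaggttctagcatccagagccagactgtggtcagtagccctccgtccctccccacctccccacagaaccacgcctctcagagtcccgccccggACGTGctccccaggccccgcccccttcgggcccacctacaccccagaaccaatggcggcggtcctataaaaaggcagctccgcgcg
Hk2, chr6:82774405-82774704, minus strand: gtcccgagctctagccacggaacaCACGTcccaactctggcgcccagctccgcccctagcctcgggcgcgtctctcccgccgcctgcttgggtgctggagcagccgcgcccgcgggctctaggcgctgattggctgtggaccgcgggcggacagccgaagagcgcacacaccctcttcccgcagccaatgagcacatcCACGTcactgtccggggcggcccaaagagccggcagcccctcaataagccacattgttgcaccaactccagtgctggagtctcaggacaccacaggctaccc
Pgk1, chrX:106186850-106187149, plus strand: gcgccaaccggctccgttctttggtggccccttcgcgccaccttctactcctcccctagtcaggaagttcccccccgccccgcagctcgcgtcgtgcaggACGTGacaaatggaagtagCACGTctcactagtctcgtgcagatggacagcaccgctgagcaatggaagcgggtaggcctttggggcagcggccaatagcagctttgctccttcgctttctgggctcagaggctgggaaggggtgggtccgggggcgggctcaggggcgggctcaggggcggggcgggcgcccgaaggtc
Pfkm, chr15:98092339-98092638, plus strand, outermost of its 4 windows: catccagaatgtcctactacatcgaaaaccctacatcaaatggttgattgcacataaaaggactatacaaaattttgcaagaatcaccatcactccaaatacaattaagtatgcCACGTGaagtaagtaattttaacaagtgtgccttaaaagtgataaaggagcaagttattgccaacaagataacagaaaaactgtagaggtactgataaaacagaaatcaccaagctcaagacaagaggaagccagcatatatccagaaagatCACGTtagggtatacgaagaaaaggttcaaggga
Pygm, chr19:6384158-6384457, plus strand: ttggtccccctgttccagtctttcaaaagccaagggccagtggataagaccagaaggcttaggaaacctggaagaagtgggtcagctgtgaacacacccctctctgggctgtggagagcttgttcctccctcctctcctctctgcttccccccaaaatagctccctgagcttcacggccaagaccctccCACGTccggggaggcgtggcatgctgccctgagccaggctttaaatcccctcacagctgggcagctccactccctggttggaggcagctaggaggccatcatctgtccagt
Slc2a1 and Pygm each hold 1 copy of the core and Pgk1 holds 2, while the Pfkm window holds the E-box, whose letters hold the core on both strands, and 1 further core. A match in letters is no evidence that a factor binds there, and a window without one says nothing of sites elsewhere.

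The genes of both glucose transporters changed, in opposite directions. Slc2a4 encodes GLUT4, which insulin and contraction bring to the surface of muscle cells. It read 14.25, 14.27 and 14.40 on the TG tamoxifen arrays and 15.57, 15.88 and 15.43 on the TG vehicle arrays. All 3 arrays with tamoxifen were lower than every other array in the study, the NTG arrays reading 15.70 to 16.11. Slc2a4 fell 2.5-fold in TG hearts, by 1.32 ± 0.17 on the log2 scale (adjusted p = 0.00172), and its other tested probe set gave -1.47. In NTG hearts its change was -0.07 ± 0.17 (adjusted p = 0.844).

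Slc2a1 encodes GLUT1, which carries glucose without insulin and is found in most cell types. It read 14.16, 14.17 and 14.02 in TG tamoxifen and 12.36, 13.27 and 13.41 in TG vehicle, and in NTG hearts 14.01, 12.66 and 12.91 with tamoxifen and 12.33, 12.36 and 11.97 with vehicle. All 3 TG tamoxifen arrays were above every other array, but NTG tamoxifen 1, at 14.014, all but equalled the lowest of them, at 14.015. Slc2a1 rose by 1.10 ± 0.35 (adjusted p = 0.0389), and its other tested probe sets gave 1.17 and 0.97. In NTG hearts the change was 0.98 ± 0.35 (adjusted p = 0.125), and without NTG tamoxifen 1 it was 0.57 (adjusted p = 0.276). The change in TG minus that in NTG hearts was 0.12 ± 0.49 (adjusted p = 0.886), so no difference in response between genotypes was detected for this gene.

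Of the hexokinase genes, Hk2 rose and Hk1 did not pass the test. Hexokinase 2 is the main form of adult heart and skeletal muscle, and hexokinase 1 is found widely. Hk2 read 15.87, 15.60 and 15.53 in TG tamoxifen and 15.01, 15.29 and 14.80 in TG vehicle, apart from each other, a rise of 0.64 ± 0.21 (adjusted p = 0.0436). The NTG arrays read 15.17 to 15.92, but the upper end is NTG tamoxifen 1, and the other 5 reached 15.57, below 2 of the 3 TG tamoxifen arrays. TG vehicle was the low group, overlapping NTG tamoxifen 2 alone. Over all probe sets the adjusted p of the rise was 0.0589, which misses the threshold. Hk1 read 13.78, 13.73 and 13.68 in TG tamoxifen and 13.40, 14.28 and 13.66 in TG vehicle, which overlapped, a change of -0.05 ± 0.21 with a 95% interval of -0.52 to 0.42. Both TG groups read below all NTG arrays for Hk1, which ran from 14.55 to 14.92.

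All 3 phosphofructokinase genes changed, the muscle form most. Pfkm, the subunit that predominates in muscle, read 14.21, 14.32 and 14.32 in TG tamoxifen and 16.46, 16.57 and 16.05 in TG vehicle, and in NTG hearts 15.53, 16.69 and 16.85 with tamoxifen and 16.69, 16.52 and 16.61 with vehicle. The TG tamoxifen arrays lay more than 1 unit below every other array, of which NTG tamoxifen 1 was the lowest. Pfkm fell 4.22-fold, by 2.08 ± 0.29 on the log2 scale (adjusted p = 0.00174), the largest fall among the tested members in this comparison.

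Pfkl, the liver form that is also found in other tissues, read 12.50, 12.45 and 12.37 in TG tamoxifen and 13.07, 13.87 and 13.16 in TG vehicle, without overlap. It fell by 0.93 ± 0.22 (adjusted p = 0.0112), and the NTG arrays read 13.82 to 14.38. Pfkp, the platelet form, went the other way and read 13.76, 14 and 13.51 in TG tamoxifen, 12.19, 12.11 and 12.71 in TG vehicle and 12.09 to 13.04 on NTG arrays, of which NTG tamoxifen 1 was the highest. Pfkp rose 2.67-fold, by 1.42 ± 0.26 (adjusted p = 0.00404), with 1.65 on its other tested probe set (adjusted p = 0.109 across probe sets).

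The bifunctional enzymes also moved in opposite directions. Pfkfb3, the widely expressed form with high kinase activity, read 10.24, 10.23 and 10.06 in TG tamoxifen and 9.38, 8.66 and 9.18 in TG vehicle, a rise of 1.10 ± 0.21 (adjusted p = 0.00521). NTG arrays read 9.72 to 10.31, so here too TG vehicle was the low group. The other tested Pfkfb3 probe set gave 0.26 (adjusted p = 0.734 across probe sets), so the rise rests on 1 probe set.

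Pfkfb2, the heart form, read 11.03, 10.97 and 11.25 in TG tamoxifen and 12.73, 12.37 and 11.41 in TG vehicle, and in NTG hearts 11.02, 11.27 and 10.98 with tamoxifen and 12.86, 12.55 and 12.10 with vehicle. Arrays with tamoxifen were low and arrays with vehicle high in both genotypes, with no overlap. The fall was 1.09 ± 0.30 in TG hearts (adjusted p = 0.0243) and 1.41 ± 0.30 in NTG hearts (adjusted p = 0.0285). The other tested Pfkfb2 probe sets disagreed with each other in TG hearts, at -1.22 and 0.36 (adjusted p = 0.0773 and 0.478 across probe sets), and read 0.49 and 0.18 in NTG hearts.

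**Figure D2:**
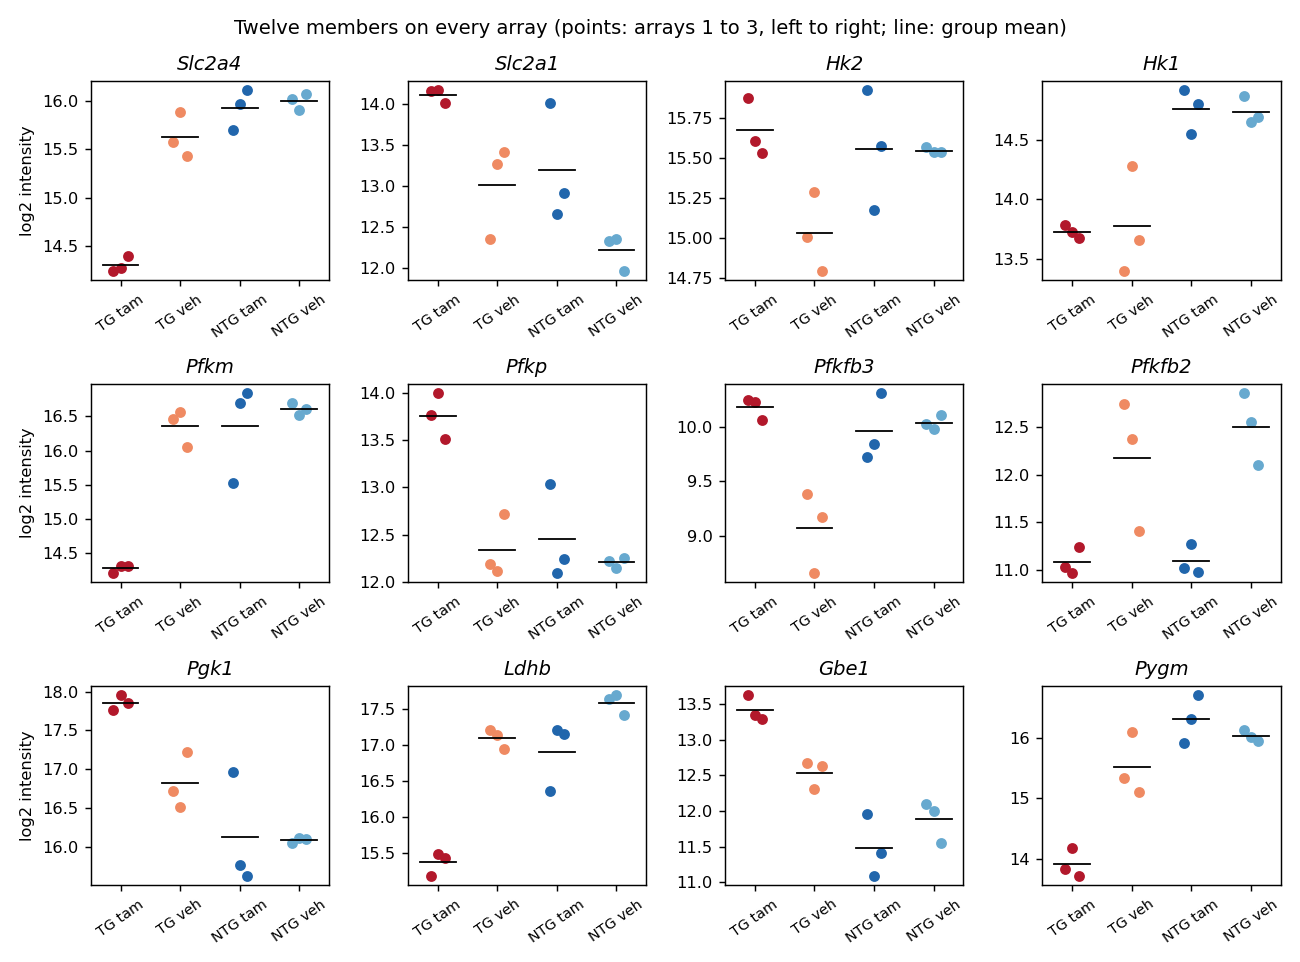
Log2 intensity of 12 genes on each of the 12 arrays, by group, with a line at each group mean (tam, tamoxifen; veh, vehicle; points from left to right are arrays 1 to 3; each panel has its own axis, which does not start at 0). Slc2a4, Pfkm, Ldhb and Pygm are lowest and Pfkp, Pgk1 and Gbe1 highest on the 3 TG tamoxifen arrays, while Hk2 and Pfkfb3 are lowest in TG vehicle and Pfkfb2 is low in both tamoxifen groups.

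Of the 6 tested genes from aldolase to enolase, 1 rose and 2 fell, where 10.4% of all tested genes rose and 14.4% fell. Tpi1, triose phosphate isomerase, read 15.45, 15.76 and 15.64 in TG tamoxifen and 16.47, 16.93 and 16.88 in TG vehicle. Its 3 TG tamoxifen arrays lay below all others, since the NTG arrays read 16.44 to 17.12. It fell by 1.15 ± 0.20 (adjusted p = 0.00376), and its other probe sets gave -1.32 and -1.39. Pgam2, the muscle phosphoglycerate mutase, read 15.80, 15.91 and 15.86 in TG tamoxifen and 16.24, 16.35 and 16.57 in TG vehicle, and in NTG hearts 17.02, 16.96 and 17.19 with tamoxifen and 16.53, 16.54 and 16.81 with vehicle. TG tamoxifen was lowest and NTG tamoxifen highest, each apart from all other arrays, and Pgam2 fell in TG hearts by 0.53 ± 0.16 (adjusted p = 0.0310).

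Pgk1, phosphoglycerate kinase, which makes the first ATP of glycolysis, read 17.76, 17.96 and 17.85 in TG tamoxifen and 16.72, 16.51 and 17.23 in TG vehicle, and in NTG hearts 16.97, 15.77 and 15.63 with tamoxifen and 16.05, 16.11 and 16.11 with vehicle. TG tamoxifen was highest and apart from all other arrays. Pgk1 rose by 1.04 ± 0.31 (adjusted p = 0.0315), with 1.29 and 1.80 on its other probe sets. The remaining tested genes of this stretch did not pass, with -0.23 ± 0.19 for Aldoa (aldolase A), 0.51 ± 0.22 for Pgam1 (the widely expressed mutase) and -0.34 ± 0.17 for Eno3 (muscle enolase), at adjusted p = 0.391, 0.106 and 0.162. Of the 4 other Aldoa probe sets 1 gave -0.50 (adjusted p = 0.0421 across probe sets). Gapdh, the glyceraldehyde phosphate dehydrogenase often used as a reference gene, read between 17.68 and 18.47 over its 3 control probe sets and all 12 arrays, and in TG hearts its log2 changes were -0.15, -0.14 and -0.08, with no test since control probe sets were left out of the fit. The probe sets of Aldoc, the brain aldolase, read from 5.58 to 10.10 across the arrays and were too dim to test.

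At the end of glycolysis Ldhb stood apart from Ldha and Pkm. Ldhb encodes the lactate dehydrogenase subunit typical of heart, and Ldha the subunit typical of skeletal muscle. Ldhb read 15.18, 15.49 and 15.42 in TG tamoxifen and 17.21, 17.13 and 16.94 in TG vehicle, and in NTG hearts 16.36, 17.20 and 17.15 with tamoxifen and 17.64, 17.70 and 17.41 with vehicle. It was lowest on the TG tamoxifen arrays, next lowest on NTG tamoxifen 1 and highest in NTG vehicle. The fall in TG hearts was 3.32-fold, 1.73 ± 0.22 on the log2 scale (adjusted p = 0.00172), and the other probe sets gave -1.72, -1.64 and -1.69.

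Ldha read 16.59, 16.49 and 16.42 in TG tamoxifen and 16.54, 16.86 and 16.41 in TG vehicle, which overlapped, a change of -0.10 ± 0.15 with an interval of -0.44 to 0.24 (adjusted p = 0.671). Pkm, the muscle pyruvate kinase gene, changed by -0.05 ± 0.18 with an interval of -0.44 to 0.33 (adjusted p = 0.853). Neither gene passed the test, and each interval includes 0.

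**Figure D3:**
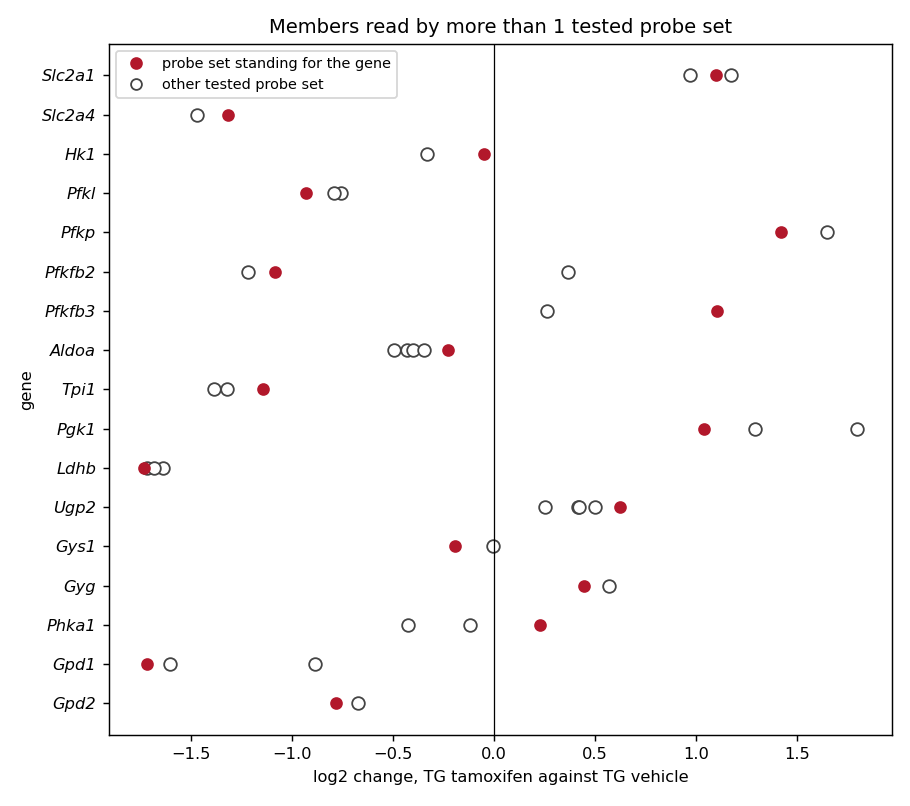
Log2 change in TG tamoxifen against TG vehicle for the 17 genes with more than 1 tested probe set, with the probe set that stands for the gene as a filled circle and the others as open circles. All probe sets of Slc2a1, Slc2a4, Tpi1, Pgk1 and Ldhb lie on 1 side of 0, those of Pfkfb2 and Phka1 lie on both sides, and in 0 of the 17 genes did probe sets pass the threshold in opposite directions.

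Among the glycogen genes, 3 of the 4 tested breakdown genes fell and 1 of the 5 synthesis genes rose. The shares over all tested genes were 14.4% falling and 10.4% rising. Pygm, the muscle glycogen phosphorylase that releases glucose 1-phosphate from glycogen, read 13.82, 14.17 and 13.72 in TG tamoxifen and 15.34, 16.09 and 15.11 in TG vehicle, and in NTG hearts 15.92, 16.32 and 16.71 with tamoxifen and 16.13, 16.02 and 15.95 with vehicle. The TG tamoxifen arrays were the lowest of all 12. Pygm fell 3.04-fold, by 1.61 ± 0.27 on the log2 scale (adjusted p = 0.00309). Pygb, the brain form that heart also makes, read 14.63, 14.46 and 14.53 in TG tamoxifen and 15.42, 15.82 and 15.03 in TG vehicle, without overlap, and fell by 0.88 ± 0.22 (adjusted p = 0.0152).

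Phosphorylase kinase switches phosphorylase on, and of its genes Phkb, the beta subunit, fell by 0.55 ± 0.19 (adjusted p = 0.0499), just inside the threshold. Over all probe sets its adjusted p was 0.0689. Phka1, the muscle alpha subunit, changed by 0.23 ± 0.19 (adjusted p = 0.411), and the Phkg1 probe sets, for the muscle catalytic subunit, read from 6.68 to 10.45 across arrays and were not tested.

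Gbe1 encodes the branching enzyme of glycogen synthesis. It read 13.63, 13.34 and 13.28 in TG tamoxifen and 12.67, 12.30 and 12.63 in TG vehicle, and in NTG hearts 11.95, 11.09 and 11.42 with tamoxifen and 12.09, 12.00 and 11.55 with vehicle. TG tamoxifen was highest, TG vehicle next and the NTG arrays lowest, without overlap between the genotypes. Gbe1 rose by 0.88 ± 0.24 (adjusted p = 0.0210). Ugp2, which makes UDP-glucose, and Gyg, the glycogenin primer, had changes of 0.62 ± 0.22 and 0.45 ± 0.16 that missed the threshold (adjusted p = 0.0581 and 0.0549). Gys1, muscle glycogen synthase, read 12.38, 11.71 and 12.31 in TG tamoxifen and 11.80, 13.03 and 12.15 in TG vehicle, which overlapped widely, a change of -0.20 ± 0.33 (adjusted p = 0.703). Pgm2, a phosphoglucomutase, changed by 0.17 ± 0.19 (adjusted p = 0.550).

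Of the glycerol phosphate shuttle, which carries electrons from glycolysis to the mitochondrion, the cytosolic enzyme gene Gpd1 fell. It read 9.93, 10.49 and 10.47 in TG tamoxifen and 11.83, 11.95 and 12.28 in TG vehicle, and in NTG hearts 10.87, 12.38 and 11.95 with tamoxifen and 12.06, 11.91 and 12.11 with vehicle. NTG tamoxifen 1, at 10.87, was again the NTG array nearest to TG tamoxifen. The fall of Gpd1 was 3.29-fold, 1.72 ± 0.32 on the log2 scale (adjusted p = 0.00475), and its other tested probe sets gave -1.61 and -0.89. Gpd2, the mitochondrial enzyme, changed by -0.78 ± 0.35 (adjusted p = 0.125).

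Read by the form each gene encodes, the muscle or heart forms were mostly on the falling side. Of 10 tested muscle or heart forms 1 rose (Hk2) and 6 fell, with a median log2 change of -0.81. Of 8 tested forms typical of many or other tissues 3 rose and 2 fell (Pfkl and Pygb), with a median of 0.23. Over all tested genes 10.4% rose and 14.4% fell in TG hearts on tamoxifen. The sorting into forms is from textbooks and was written with earlier results of these data known, so the counts describe these genes and were given no test.

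The calls in TG hearts depended on some arrays and on the beta-actin ratio. Among 26 alternative settings, Slc2a4, Pfkm, Pfkp, Ldhb and Pygm were called in 24, while Slc2a1 was called in 13, Hk2 in 10 and Phkb in 6. The number called fell from 17 to 10 without TG tamoxifen 1 or without TG tamoxifen 2 and to 11 without TG vehicle 2. Over all tested genes the share called fell from 24.8% to 13.1%, 15.7% and 15.3% in these 3 fits. TG vehicle 3 is a tamoxifen array by its treatment field, though its Hspa5 level, given above, was that of the vehicle arrays. With it counted as tamoxifen 0 members passed (15 at an unadjusted p below 0.05) and 0 of all tested genes did. Without it and TG tamoxifen 1 the number was 8, and 6.66% of all tested genes were called. With the beta-actin ratio as a term in the limma fit 0 members passed (13 at an unadjusted p below 0.05), and 5 of all tested genes did. Slc2a4 then read -1.10 (0.0598), Pfkm -1.85 (0.0669) and Ldhb -1.74 (0.0586), and Pygm read -1.01 (0.117). The beta-actin ratio itself separated the TG groups without overlap, so in that fit it cannot be told apart from treatment. The same ratio for Gapdh overlapped, at 0.764 ± 0.017 in TG tamoxifen and 0.769 ± 0.0162 in TG vehicle (exact permutation p = 0.9), and the part of RNA quality in these changes was not tested further.

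In NTG hearts tamoxifen went with few changes among these genes. Of the 29, 0 rose and 2 fell, or 6.9%, against 4.37% of all tested genes (0.681% up and 3.69% down), and the median log2 change was 0.03 with -0.01 over all genes. These were Pfkfb2, given above, and Phkb, which read 11.82, 11.71 and 11.50 with tamoxifen and 12.50, 12.36 and 12.41 with vehicle. Every tamoxifen array was lower than every vehicle array for Phkb, a fall of 0.75 ± 0.19 (adjusted p = 0.0455, or 0.0547 across probe sets). In 8 members the NTG groups lay apart, where 30.2% of all genes did.

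Without NTG tamoxifen 1 the calls were different ones. Pfkfb2 and Phkb then gave -1.38 and -0.82 (adjusted p = 0.0573 and 0.0520) and missed the threshold, and Gpd2 alone passed, at 1.19 (adjusted p = 0.0391), against 3.77% of all genes. Gpd2 had read 11.38, 12.75 and 12.86 with tamoxifen and 11.50, 11.77 and 11.60 with vehicle, high on arrays 2 and 3 and low on array 1. Over all 12 arrays its change was 0.71, and its other tested probe set gave -0.13. The number called was 0 when NTG tamoxifen 3 or any 1 of the NTG vehicle arrays was left out, with 4 or 5 members at an unadjusted p below 0.05 in the limma fit. Over all tested genes 0% to 0.206% were called in these fits.

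**Figure D4:**
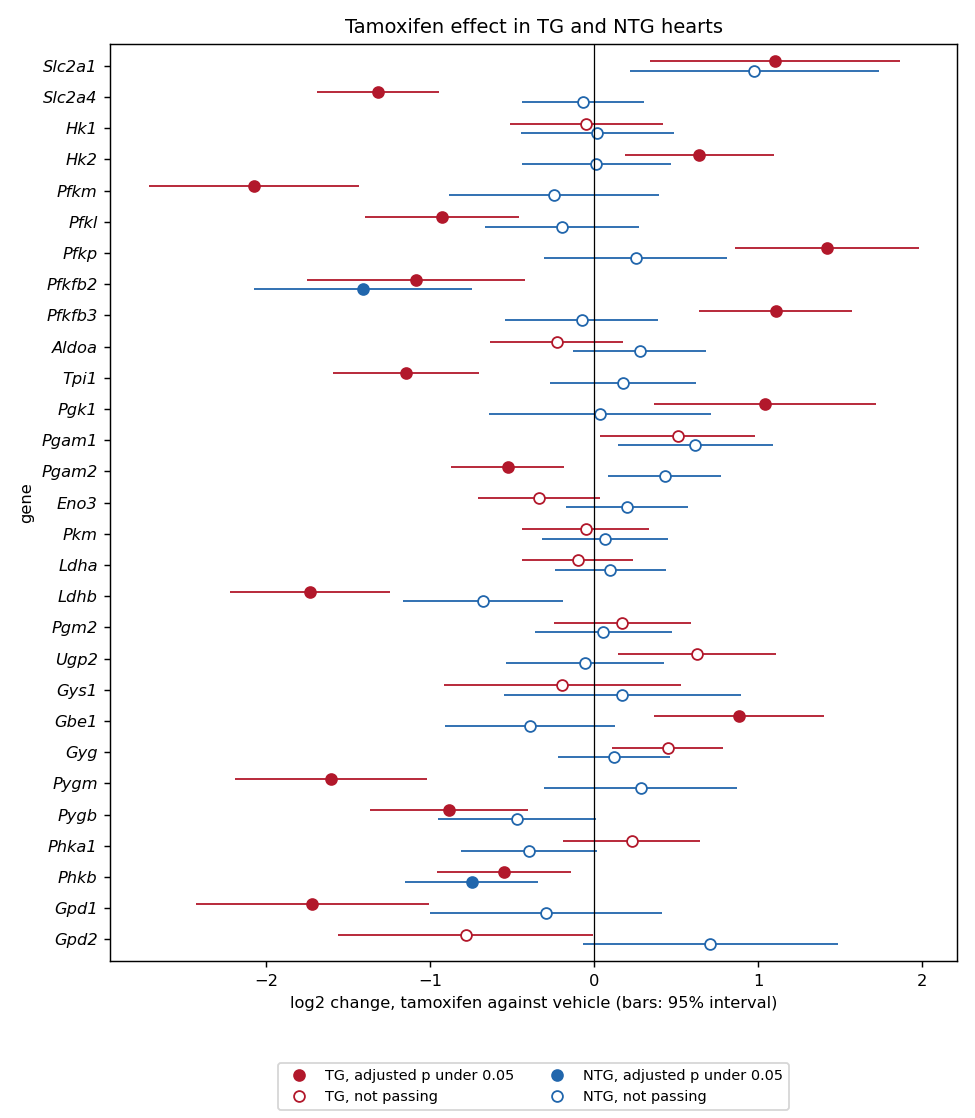
Log2 change with tamoxifen in TG (red) and NTG hearts (blue) for each tested gene, with its 95% interval as a bar and filled circles where the adjusted p was below 0.05. In TG hearts 17 circles are filled and in NTG hearts 2, Pfkfb2 and Phkb; for Slc2a4, Pfkm, Tpi1, Pygm and Pfkfb3, among others, the intervals in TG and NTG hearts do not meet.

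The response to tamoxifen differed between TG and NTG hearts for 8 of the 29 genes, or 27.6%, against 14.3% of all tested genes (7.51% positive and 6.76% negative). The difference was positive for 2, Pfkfb3 and Gbe1, and negative for 6, Slc2a4, Pfkm, Tpi1, Pgam2, Ldhb and Pygm, a split of 4 and 4 with each array centred on its median. That centring made the difference positive for 81.9% of all genes that passed, against 52.6% here. It was -1.89 ± 0.38 for Pygm (adjusted p = 0.0136), -1.83 ± 0.41 for Pfkm (0.0191) and -1.32 ± 0.29 for Tpi1 (0.0160). Pygm was lower with tamoxifen on all 3 TG arrays, while on NTG arrays 2 and 3 it was above every vehicle array and on array 1 below them. Gbe1 gave 1.27 ± 0.34 (0.0299), Slc2a4 -1.25 ± 0.24 (0.0126) and Pfkfb3 1.18 ± 0.30 (0.0268), whose other tested probe set gave -0.26. Ldhb gave -1.06 ± 0.32 (0.0457, or 0.0576 across probe sets) and Pgam2 -0.96 ± 0.22 (0.0201), and Pgam2 moved in opposite directions, with a change of 0.43 ± 0.16 in NTG hearts that missed the threshold (adjusted p = 0.133).

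Without NTG tamoxifen 1 the same 8 genes passed and 6 more did, against 22.9% of all genes. The added genes were Gpd1 at -1.86 (adjusted p = 0.00320), Gpd2 at -1.97 (0.00366), Pfkp at 1.46 (0.00686), Pgk1 at 1.43 (0.00582), Ugp2 at 0.96 (0.0136) and Phka1 at 0.79 (0.0402). Pfkm then gave -2.24 (0.000594). The number was 4 without TG tamoxifen 1 or NTG vehicle 2, where 6.31% and 5.77% of all tested genes passed. Without TG tamoxifen 2, TG vehicle 2 or NTG vehicle 1 it was 5, with 8.42%, 7.69% and 8.28% of all tested genes. With the beta-actin ratio as a term, or with TG vehicle 3 counted as tamoxifen, 0 members and 0 of all tested genes passed. At an unadjusted p below 0.05 in these limma fits there were 1 and 8 members.

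The transgene without the drug went with lower levels of 4 genes. In TG vehicle against NTG vehicle 0 members rose and 4 fell, or 13.8%, against 3.63% of all tested genes (1.39% up and 2.24% down), and the groups lay apart in 15 members where 30.8% of all genes did. Pygb fell by 0.98 ± 0.22 (adjusted p = 0.0387), with 15.42, 15.82 and 15.03 in TG vehicle and 16.44, 16.45 and 16.34 in NTG vehicle. Pfkfb3 fell by 0.97 ± 0.21 (0.0375) and Hk1 by 0.96 ± 0.21 (0.0387). Pfkl, at 13.07, 13.87 and 13.16 in TG vehicle and 14.29, 14.38 and 14.17 in NTG vehicle, fell by 0.91 ± 0.22 (0.0438). For each of the 4 genes all TG vehicle arrays were below all NTG vehicle arrays. The other tested probe sets gave 0.15 for Pfkfb3, -0.40 for Hk1 and -0.28 and 0.18 for Pfkl, none of them past the threshold, and Pygb has no other.

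Without NTG tamoxifen 1, which this comparison uses for the spread alone, these 4 passed with Pgk1 and Ugp2, against 7.11% of all genes. The number was 0 when TG vehicle 3, any 1 of the NTG vehicle arrays or any 1 of the TG tamoxifen arrays was left out, with 7 to 13 members at an unadjusted p below 0.05, and 1 without TG vehicle 1. Over all tested genes 0.0179% to 1.77% were called at these zeros and 5.63% without TG vehicle 1. The number was also 0 with the beta-actin ratio as a term (5 at an unadjusted p below 0.05 in limma) and with only these groups in the fit (15). In those 2 fits 0% and 0.152% of all tested genes were called. The beta-actin ratios given above and the Gapdh ratios, 0.769 ± 0.0162 in TG vehicle and 0.957 ± 0.0633 in NTG vehicle, both lay apart between these groups (exact permutation p = 0.1), and the part of RNA quality was not tested.

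Between the genotypes on tamoxifen 24 of the 29 genes differed, or 82.8%, against 39.5% of all tested genes (19% higher and 20.6% lower). Of these 8 were higher and 16 lower in TG tamoxifen than in NTG tamoxifen (10 and 13 with each array centred on its median, where 59.9% of all called genes were higher, against 48% here), with a median log2 difference of -0.55 against -0.06 over all genes, and the groups lay apart in 25 members, as in 51% of all genes. Among the lower ones Slc2a4 differed by -1.62 ± 0.17 (adjusted p = 0.000221), Pygm by -2.41 ± 0.27 (0.000260) and Pfkl by -1.64 ± 0.22 (0.000392). Pgam2 followed at -1.20 ± 0.16 (0.000392), Pfkm at -2.07 ± 0.29 (0.000511), Ldhb at -1.54 ± 0.22 (0.000558) and Pygb at -1.40 ± 0.22 (0.000813). Gbe1 was higher in TG tamoxifen by 1.93 ± 0.24 (0.000315).

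The 5 genes listed here under glycogen synthesis all differed on tamoxifen, 4 of them higher in TG hearts. Beside Gbe1 these were Ugp2 at 1.33 ± 0.22, Gyg at 0.78 ± 0.16 and Pgm2 at 0.64 ± 0.19. Gys1 was lower at -1.12 ± 0.33 (adjusted p = 0.0186), while its other tested probe set gave 0.14. Pgm1, which is not among the 5, went the other way from Pgm2. It read 13.63 to 13.80 in TG tamoxifen and 14.08 to 14.44 in NTG tamoxifen. All 3 pyruvate and lactate genes were lower, Pkm at -0.70 ± 0.18 and Ldha at -0.43 ± 0.15 included; across probe sets Ldha missed the threshold (adjusted p = 0.0561). Pfkfb2 and Pfkfb3, which had changed with the drug within TG hearts, gave -0.01 ± 0.30 and 0.22 ± 0.21 (adjusted p = 0.986 and 0.444), and Hk2 gave 0.11 ± 0.21 (0.693). Without NTG tamoxifen 1 the number was again 24, of which 22 were the same, against 42.9% of all genes. Slc2a1, at 1.33 (adjusted p = 0.00406), and Pgam1 then passed, and Aldoa and Gys1 did not.

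The arrays of a group agreed to different degrees for these genes. The median standard deviation over the 29 genes was 0.0972 in TG tamoxifen and 0.0974 in NTG vehicle, against 0.273 in TG vehicle and 0.345 in NTG tamoxifen. The widest spread in TG vehicle was that of Pfkfb2, where array 3 read 11.41 and the others at least 12.37, and in NTG tamoxifen that of Gpd2.

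Neighbouring genes outside the 35 were read from lists of the same pathways. For every list, the share over all tested genes in TG hearts on tamoxifen was 10.4% upward and 14.4% downward. Of 6 tested genes of other hexose transport and phosphorylation 0 rose and 2 fell in TG hearts on tamoxifen, Slc2a12, a further glucose transporter, by 1.88 ± 0.58 (adjusted p = 0.0365) and Galm, which interconverts the forms of hexoses, by 0.79 ± 0.20 (0.0149). Of 12 other glycolysis and lactate genes 2 rose and 4 fell. Bsg, the chaperone of lactate transporters, fell by 1.34 ± 0.21 (0.00235) and Fbp2, the muscle fructose bisphosphatase, by 2.70 ± 0.60 (0.00950), and Pgp, phosphoglycolate phosphatase, rose by 2.85 ± 0.60 (0.00791).

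Of 15 other glycogen genes 4 rose and 3 fell, where 10.4% of all tested genes rose and 14.4% fell. Gsk3b, a kinase that inhibits glycogen synthase, rose by 1.35 ± 0.22 (0.00277) and Stbd1, a protein that binds glycogen, by 2.75 ± 0.48 (0.00345), while Gaa, the lysosomal enzyme that degrades glycogen, fell by 0.99 ± 0.16 (0.00293). Of 9 genes of the pentose phosphate and polyol pathways, Taldo1 (transaldolase) rose by 0.84 ± 0.27 (0.0437) and Khk (ketohexokinase) fell by 1.35 ± 0.21 (0.00242).

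Among 23 tested genes of insulin signalling and the control of glucose use 1 rose and 8 fell. Over all tested genes these shares were 10.4% and 14.4%. Hif1a, the oxygen-regulated factor that drives many glycolytic genes, rose by 1.15 ± 0.18 (0.00265). Klf15, a factor that promotes Slc2a4 expression in heart and muscle, read 9.03, 8.28 and 8.32 in TG tamoxifen and 12.46, 12.10 and 11.50 in TG vehicle and fell by 3.47 ± 0.40 (0.00159). Akt2, the kinase through which insulin moves GLUT4, fell by 0.84 ± 0.18 (0.00756), and Pdk4, which blocks the entry of pyruvate into the mitochondrion, fell by 1.59 ± 0.48 (0.0342). Txnip, which restrains glucose uptake, changed by -0.43 ± 0.34 (adjusted p = 0.371).

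Some markers of cell types moved with tamoxifen in TG hearts, where 10.4% of all tested genes rose and 14.4% fell. Of 7 cardiomyocyte markers 0 rose and 1 fell (Ryr2, by 0.90 ± 0.30), and their summed level was 20.89 to 20.94 log2 units in TG tamoxifen and 21.02 to 21.06 in TG vehicle. Of 7 tested macrophage markers 3 rose (Ptprc, Aif1 and Ccr2). Without passing, Cd68 and Lyz2 had higher means, and Csf1r (14.81 against 15.09) and Adgre1 (12.45 against 12.64) lower means with tamoxifen. Macrophage sums over all 8 were 16.51 to 17.15 in TG tamoxifen and 15.63 to 16.61 in TG vehicle. Of 6 endothelial markers 4 fell (Cdh5, Kdr, Tie1 and Emcn), with sums of 14.81 to 14.95 and 15.20 to 15.57. Of 6 fibroblast markers 1 rose and 1 fell, and of 3 tested smooth muscle markers 0 rose and 0 fell. Both tested markers of dividing cells, Top2a and Tk1, rose. Between the genotypes on tamoxifen 4 of 7 macrophage, 1 of 6 fibroblast and both dividing-cell markers were higher in TG hearts. Lower there were 3 of 6 endothelial, 2 of 3 smooth muscle and 1 of 7 cardiomyocyte markers. Over all tested genes 19% were higher and 20.6% lower. The NTG tamoxifen sums were 15.38 to 15.43 for macrophage, 14.94 to 15.24 for endothelial and 20.98 to 21.06 for cardiomyocyte markers. The skeletal muscle markers Actn3, Myh1, Myh4 and Tnnt3 and the adipocyte markers Adipoq, Cidec and Lep lay below the filter level. The other measured marker of each list lay above it. Acta1 read 14.39 to 17.24 in TG vehicle and 14.83 to 15.76 in TG tamoxifen. Fabp4 passed the threshold in NTG hearts, at -1.13, and between the genotypes on tamoxifen, at 0.89. In whole ventricle, fewer cells of a type and less RNA per cell cannot be told apart, and the part of cell makeup in the changes of the glucose genes was not tested.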

How the data were processed

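Each of 12 left ventricles was measured on 1 whole-genome Affymetrix mouse array. Linear intensities per probe set are what the authors deposited, with the same trimmed mean (2500.02 after leaving out 2% at each end) on every array. Per the labels, RNA was extracted with RNAzol and the Affymetrix expression protocol was followed; which software scanned and summarised the arrays is not given in the sources used here. Each heart was its own array, and the small number of arrays limits the precision. Columns of per-sample values left unused numbered 0.

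Array medians spanned 0.355 on the log2 scale, so log2(intensity + 16) was quantile normalized. Genes were named from the platform annotation, from probe sets with 1 symbol. The probe set with the highest mean stood for its gene, and probe sets below the 50th percentile (an intensity of 670.3) were not tested; a gene high in any 1 group can pass this filter on its mean. Of 73 probe sets 61 were tested, and 4 more that name a glucose gene together with other genes were not used. The standing probe sets of Aldoa, Tpi1, Pgk1, Ldhb and Gyg are marked as possibly matching several transcripts. Pgm2 is the gene formerly called Pgm1, and the Pgm1 named here is a separate gene. The test was that of limma 3.58.1 under R 4.3.3 (two-sided, lmFit with eBayes, 8 residual and 3.55 prior degrees of freedom) on 4 group means, with Benjamini-Hochberg adjustment over 11165 genes, or over the 22518 probe sets where the text says so. Control ratios were compared by an exact permutation test. The fit was tested on simulated data.

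The genes, lists, markers and motifs were chosen with earlier results of these data known. Values per array are given for genes past the threshold in TG hearts or in the difference between genotypes, up to 14 by smallest adjusted p, and for Slc2a1, Slc2a4, Hk1, Hk2, Pfkm, Pfkfb2, Pfkfb3, Ldha, Gys1 and Pygm; other comparisons name up to 8 by that order, with others chosen after their values were seen. The planned search of promoters for longer ER stress and ATF6 elements is not reported, since no table used here gives their letters. Pathway lists name up to 3 genes each, with Klf15, Txnip and Pdk4, and Pgm1 is named beside Pgm2. Alternatives covered scaling, offset, filter, choice of probe set, arrays in the fit, each array left out, the conflicting labels, a replicate block, the beta-actin ratio and a trended robust fit.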

Additional observations from a re-analysis of the deposited data

Results flagged for a closer look

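The tamoxifen effect differed between TG and NTG hearts in the limma interaction test, which passed the adjusted threshold for 8 of the 29 tested genes. The difference in log2 change, TG minus NTG, was -1.89 for Pygm, -1.83 for Pfkm, -1.32 for Tpi1, -1.25 for Slc2a4, -1.06 for Ldhb and -0.96 for Pgam2. It was 1.27 for Gbe1 and 1.18 for Pfkfb3. For Pfkfb3 the change within TG hearts started from TG vehicle arrays that read 8.66 to 9.38, below all NTG vehicle arrays, and its second tested probe set gave a difference of -0.26. For Pgam2 the change was -0.53 in TG and 0.43 in NTG hearts. Each of the 8 also passed without the array labelled NTG tamoxifen 1.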

How the results depend on the processing

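The 3 arrays per group and the labels of 3 of them limit these results, and the scaling moved the balance of directions given above. With the deposited scaling alone, a pseudocount of 1 or 64, a trended robust fit or specific probe sets preferred, every count of members called stayed within 1.5 times. Centring each array on its median also kept them within 1.5 times (16 for tamoxifen in TG hearts, 3 for tamoxifen in NTG hearts, 4 for genotype on vehicle, 23 for genotype on tamoxifen and 8 for the difference between the effects) but moved the median of all genes to -0.16 in NTG hearts, -0.11 in TG vehicle against NTG vehicle and 0.18 in the difference between the effects, and the calls over all genes in NTG hearts rose from 4.37% to 8.71%, of which 4.84% were higher against 15.6% before. In TG vehicle against NTG vehicle 13.7% of all calls were higher against 38.3%. The calls moved as follows.

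In TG tamoxifen against TG vehicle (17) the count was 10 with no filter on low values, 0 with TG vehicle 3 counted as tamoxifen, 8 without both arrays with conflicting labels, 0 with the beta-actin ratio as a term, and 10 to 20 with each array left out. In NTG hearts (2) it was 0 with no filter, a filter at the 25th percentile, the mean of a gene's probe sets, only the groups compared or the beta-actin ratio, 1 with TG vehicle 3 counted as tamoxifen or without both arrays, and 0 to 2 with each array left out. In TG vehicle against NTG vehicle (4) it was 2 with the mean of probe sets, 0 with no filter, the 25th percentile, only the groups compared, TG vehicle 3 counted as tamoxifen, without both arrays or with the beta-actin ratio, and 0 to 6 with each array left out. In the difference between the effects (8) it was 2 with no filter, 5 with the 25th percentile, 0 with TG vehicle 3 counted as tamoxifen, without both arrays or with the beta-actin ratio, and 4 to 14 with each array left out. TG tamoxifen against NTG tamoxifen (24) gave 20 to 25 with each array left out. At these zeros, limma fits had from 1 to 15 members at an unadjusted p below 0.05. The share called over all tested genes moved in the same settings. For tamoxifen in TG hearts it went from 24.8% to 8.82% with no filter and 6.66% without both arrays. For the difference between the effects it went from 14.3% to 1.98% with no filter, 5.93% with the 25th percentile and 0.511% without both arrays. Outside the fits with 1 array left out, it was 0% to 2.1% at the zeros in NTG hearts. The cause of these shifts was not tested.

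With the mean of its probe sets Pfkfb2 gave 0.91 in TG vehicle against NTG vehicle (adjusted p = 0.0442) and 0.56 in TG tamoxifen against NTG tamoxifen (0.0391). Its standing probe set had given -0.33 and -0.01 and passed in neither (adjusted p = 0.551 and 0.986). The tested probe sets ran from -0.33 to 1.82 in the first comparison and from -0.01 to 0.79 in the second. With the replicate number as a block the counts were 14, 1, 0, 22 and 8 in the order above, with 12 members at an unadjusted p below 0.05 where it was 0. The labels do not say whether replicate numbers link mice. Deviations of the 18 same-numbered pairs correlated from -0.087 to 0.091, and 6 of 12 arrays correlated best with their own number. A pairing was not tested for. A fit of only the groups compared was not made for the difference between the effects, which uses all 4 groups.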

Other observations

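The array labelled NTG tamoxifen 1 read 17.27 for Pgp and 13.20 for Stbd1, where NTG tamoxifen 2 and 3 read 14.32 and 14.36 for Pgp and 11.17 and 10.80 for Stbd1, and the TG tamoxifen arrays 16.26 to 16.59 and 13.05 to 13.55. Fbp2 read 10.11 on it, against 13.16 and 12.73. Hif1a did not follow: the array read 12.71, between the other NTG tamoxifen arrays at 12.63 and 13.03 and below the TG tamoxifen arrays at 14.33 to 14.74. Klf15 read 10.97 on it, between the TG tamoxifen arrays at 8.28 to 9.03 and the other NTG tamoxifen arrays at 12.59 and 12.56.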
